A study of Mus musculus with 36 samples.

Results

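Cytochrome P450 genes were read out as 94 Affymetrix probe sets that stand for 71 genes, out of 45037 probe sets tested and 18193 genes with a single symbol in mouse lung. The members are all probe sets to which the platform annotation gives a single symbol that starts with Cyp and a digit, leaving out Cyp51 and Cyp2f2 (4 probe sets), and 4 further probe sets that carry several symbols with a Cyp among them were not counted. Left lungs of male mice aged 7 to 13 weeks were hybridised, 1 mouse per array, after they had breathed filtered air, or ozone at 0.3 ppm without a break for 6, 24 or 48 hr. The mice were WT (B6129SF1/J), Notch3-/- (the Notch3tm1Grid allele) or Notch4-/- (the Notch4tm1Grid allele), with 3 mice in each of the 12 groups and 36 arrays in all. Each genotype had 1 air group, which serves all 3 exposure times. The methods describe parallel air exposures of equal length, but the labels give no duration for the air mice. Time in the chamber could therefore not be matched between ozone and air. The targeted alleles are carried by all cells of the knockout mice. WT animals were a first generation cross between inbred strains, which was not so for either knockout, so strain and knockout cannot be told apart.

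P450 enzymes are heme proteins that insert oxygen into lipids, steroids, vitamins and foreign chemicals. Many of them receive their electrons from P450 oxidoreductase. In the lung they are known chiefly from club cells, alveolar type 2 cells, endothelium and macrophages, where they activate or clear inhaled chemicals and turn arachidonic acid and sterols into signalling lipids. Families CYP1 to CYP3 handle mostly foreign compounds, the CYP4 enzymes hydroxylate the ends of fatty acids and eicosanoids, and the higher numbered families make or break steroids, bile acids, vitamin D and retinoic acid. Values are log2 intensities that had been set relative to the probe set's own median in the series, called the centred log2 level here, so 0 is the middle of the series and neither brightness nor detection can be read, and levels cannot be set against each other between genes.

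The check of the targeted genes concerned 5 probe sets. In Notch3-/- lungs the Notch3 levels lay between -2.43 and -1.71 for 1421964_at and between -4.51 and -3.13 for 1421965_s_at, below all other mice. Notch4 1449146_at lay between -4.31 and -1.40 in Notch4-/- lungs, and the 2 highest of these values, -1.97 and -1.40, belonged to Notch4-/- air replicates 1 and 2. A further probe set, 1456263_at, was at -0.82 to -0.19 in these lungs and at -0.14 or higher in all others, and 1436901_at overlapped between all lines. For each gene called in a comparison that uses the Notch4-/- air group, a value or call without these mice is therefore given too. Only 1 Notch4-/- air mouse, replicate 3, is then left, so such values rest on that mouse and give the size of the difference only. Notch3-/- air replicate 3 also stood apart, with a mean level of 3.39 over 8 skeletal muscle markers against 1.09 or lower in every other mouse. Without this array the calls of Cyp7b1 (both probe sets, 1.28 and 0.98) and Cyp2j6 (-0.43) at 24 hr in Notch3-/- mice, of Cyp27a1 at 24 hr (-0.30) and of Cyp2c54 at 6 hr (-0.23) were lost, Cyp4v3 1417071_s_at passed in Notch3-/- mice at 24 hr (-0.58) and 48 hr (-0.61), and the other calls that use it held. The spread of P450 probe sets between mice of a group was typical of the array, with a median SD of 0.164 against 0.171 for all probe sets. Alveolar type 2 markers, 7 measured, gave 0 calls with limma in the 5 comparisons averaged over genotypes or exposures (0 to 4 at an unadjusted p under 0.05), and centred values do not show whether they were detected.

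The upstream stretches of 4 genes are shown because their signal differed most plainly between exposures or lines among the members that the sequence table holds. Each line gives the 250 bases before the start of the gene on its own strand, from RefSeq on GRCm38.p6, with 3 sets of letters in capitals on either strand. GCGTG is the core to which the aryl hydrocarbon receptor binds, TATAAA is the TATA box, and TGACNNNGC is the core of the antioxidant response element.
Cyp1a1: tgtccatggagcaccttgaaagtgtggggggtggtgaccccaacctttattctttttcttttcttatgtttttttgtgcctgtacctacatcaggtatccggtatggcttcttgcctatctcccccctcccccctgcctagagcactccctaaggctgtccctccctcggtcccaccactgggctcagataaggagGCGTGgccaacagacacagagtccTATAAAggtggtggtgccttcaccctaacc
Cyp2r1: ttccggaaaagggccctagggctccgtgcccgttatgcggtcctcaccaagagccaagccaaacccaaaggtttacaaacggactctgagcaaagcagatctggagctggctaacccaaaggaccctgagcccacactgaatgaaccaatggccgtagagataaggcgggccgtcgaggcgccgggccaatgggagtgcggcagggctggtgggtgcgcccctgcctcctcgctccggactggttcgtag
Cyp4f39: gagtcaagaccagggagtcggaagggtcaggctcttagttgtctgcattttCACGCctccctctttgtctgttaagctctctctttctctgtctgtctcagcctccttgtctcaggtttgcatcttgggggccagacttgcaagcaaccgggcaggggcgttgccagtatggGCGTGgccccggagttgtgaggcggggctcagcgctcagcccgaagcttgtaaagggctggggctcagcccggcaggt
Cyp4f18: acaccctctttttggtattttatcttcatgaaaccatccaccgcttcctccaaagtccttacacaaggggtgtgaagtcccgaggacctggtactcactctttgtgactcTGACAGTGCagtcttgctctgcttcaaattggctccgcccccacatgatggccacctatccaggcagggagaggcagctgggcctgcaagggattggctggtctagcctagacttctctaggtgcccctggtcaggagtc
These stretches lie at chr9:57697363-57697612 on the plus strand for Cyp1a1, chr7:114562973-114563222 on the minus strand for Cyp2r1, chr17:32452473-32452722 on the plus strand for Cyp4f39 and chr8:72009627-72009876 on the minus strand for Cyp4f18. Cyp1a1 held GCGTG 54 bases and TATAAA 30 bases before its start. Cyp4f39 held GCGTG at 78 bases and, on the opposite strand, at 199 bases before its start, and Cyp4f18 held TGACNNNGC at 140 bases. None of the 3 is in these letters of Cyp2r1. Over the 50 P450 genes in the table, TATAAA was in 38% of the windows against 12.4% of all 32851 promoters, GCGTG in 22% against 28.2%, and TGACNNNGC in 6% against 10.2%. A match describes the letters only.

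Ozone against air was first taken as the mean of the 3 genotypes, which sets 9 exposed against 9 air mice. At 48 hr 12 of the 94 probe sets, of 10 genes, passed an adjusted p of 0.05. Cyp7b1, Cyp2r1, Cyp4f39, Cyp3a13 and Cyp4f16 were higher and Cyp1a1, Cyp2j6, Cyp2j9, Cyp27a1 and Cyp4v3 were lower. The calls of Cyp2j6 and Cyp4f16 came from 1440691_at and 1430173_x_at. The probe sets chosen to stand for these genes, 1417952_at and 1417277_at, had no call. The 6 probe sets that were higher make 6.38% of the members, near the 6.72% of all probe sets, and the 6 that were lower make 6.38% against 3.96%. At 24 hr 3 were higher (3.19%, against 3.19% of all) and 7 lower (7.45%, against 2.1% of all). At 6 hr 0 were higher (against 0.822% of all) and only Cyp2c54 was lower (1.06%, against 2.08% of all). In limma 25 of the 94 had an unadjusted p under 0.05 at 6 hr, as did 8642 of all 45037. The median difference over the members was -0.06 at 6 hr, -0.05 at 24 hr and -0.02 at 48 hr, against -0.01, -0.02 and -0.01 for all probe sets. Over all 16 comparisons of ozone and of mouse lines, 21 probe sets of 18 genes passed at least once and 73 never did. The share of all probe sets that passed at least once was not counted, so these numbers cannot be set against the whole array.

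**Figure D1:**
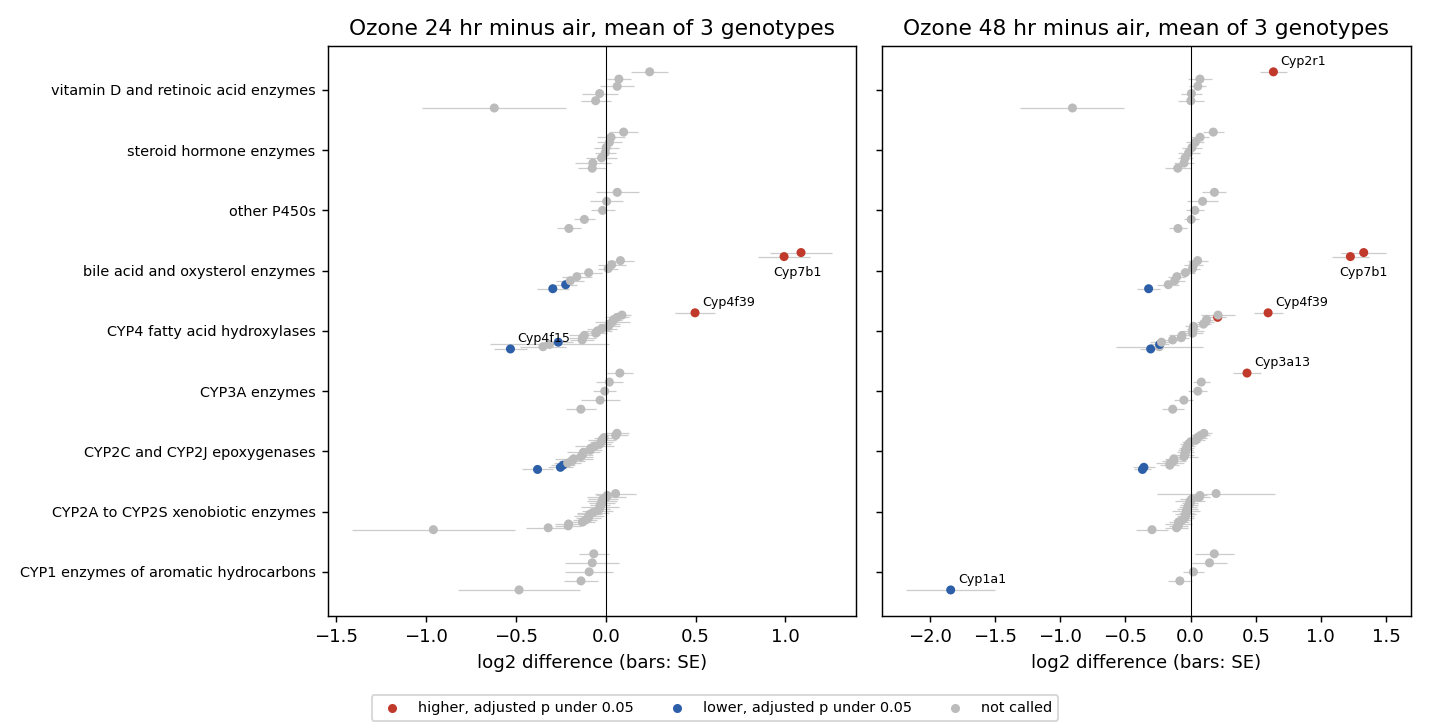
Difference between ozone and air at 24 hr (left) and 48 hr (right), on the log2 scale as the mean of 3 genotypes with its SE, for all 94 P450 probe sets grouped by role, with a shared list of roles on the vertical axis. Cyp7b1, Cyp4f39 and, at 48 hr, Cyp2r1 and Cyp3a13 lie to the right, Cyp1a1 at -1.84 lies far to the left at 48 hr, and most members lie near 0.

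Among the bile acid and oxysterol enzymes, 10 probe sets of 6 genes, Cyp7b1 rose and Cyp27a1 and Cyp39a1 fell. Cyp7b1, which hydroxylates oxysterols and so makes or clears lipids that steer immune cells, was measured by 1421074_at. In air its centred levels were -0.48, -0.66 and -1.43 in WT, -0.79, -0.77 and -0.45 in Notch3-/- and -0.24, 0.03 and -1.43 in Notch4-/- mice. After 48 hr they were 0.55, 0.44 and 0.52 in WT, 0.59, 0.89 and 0.73 in Notch3-/- and 1.03, 0.59 and 0.41 in Notch4-/- mice. All 9 mice at 48 hr lay above all 9 air mice, whereas the 6 hr mice, from -1.09 to -0.03, lay among the air mice. At 24 hr the 9 mice ranged from -0.54 to 0.99 with a median of 0.46, and 1 WT mouse was as low as the air mice.

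The mean difference in Cyp7b1 was 1.33 (SE 0.17, adjusted p = 3.3e-06), a 2.51-fold rise, at 48 hr and 1.09 (SE 0.17, adjusted p = 0.00024) at 24 hr. The related probe set 1421075_s_at gave 1.23 (adjusted p = 5.9e-07) and 0.99 (adjusted p = 6.1e-05), while 1446995_at, the third probe set with this symbol, ranged only from -0.28 to 0.32 over all mice. Without Notch4-/- air replicates 1 and 2 the difference was 1.62 at 48 hr and 1.38 at 24 hr. Within genotypes at 48 hr it was 1.36 in WT (SE 0.30, adjusted p = 0.011), 1.40 in Notch3-/- (SE 0.30, adjusted p = 0.0072) and 1.22 in Notch4-/- mice (SE 0.30, adjusted p = 0.03). The Notch4-/- value rested on the air mice, at 0.78 (not called) without air replicate 3 and 2.11 without air replicates 1 and 2. The latter leaves only the lowest Notch4-/- air mouse, at -1.43. It was also not called without Notch4-/- 48 hr replicate 1 or 2, and the WT value was not called without WT air replicate 3 or WT 48 hr replicate 1, with differences from 1.07 to 1.55. At 24 hr Cyp7b1 1421074_at passed in Notch3-/- mice (1.17, adjusted p = 0.034) and 1421075_s_at in Notch3-/- (0.97) and Notch4-/- mice (1.15, adjusted p = 0.019). The Notch3-/- calls at 24 hr were lost without any 1 of the 6 arrays, and the Notch4-/- value of 1421075_s_at at 24 hr was 0.68 (not called) without air replicate 3 and 2.08 without air replicates 1 and 2.

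Macrophage markers moved with Cyp7b1 at 48 hr. Of 8 measured, 5 were higher at 48 hr and 1 at 24 hr, with a median difference of 0.40 at 48 hr, and the mean level of the list was -0.40 to 0.10 in air mice and 0.17 to 0.49 at 48 hr. Marco, a scavenger receptor of alveolar macrophages, was higher by 0.73 at 24 hr and 0.92 at 48 hr. Within genotypes at 24 hr the median difference of the list was 0.16 in WT, 0.21 in Notch3-/- and -0.18 in Notch4-/- mice. The mean level of the list was -0.45 to -0.13 in the Notch4-/- mice at 24 hr and -0.40 to 0.09 in their air mice. In those Notch4-/- mice Cyp7b1 1421075_s_at was higher by 1.15, or by 0.68 (not called) without air replicate 3. The part of macrophage number in the Cyp7b1 result was not tested, and in whole lung RNA a change in cells of a type and a change in RNA per cell cannot be told apart.

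Cyp27a1, the mitochondrial sterol hydroxylase that starts one route to bile acids, fell by 0.29 at 24 hr (adjusted p = 0.045) and by 0.32 at 48 hr (SE 0.09, adjusted p = 0.014). Its levels were -0.09 to 0.44 in the 9 air mice and -0.46 to 0.09 at 48 hr, so the groups overlapped, and without Notch4-/- air replicates 1 and 2 it differed by -0.39 and -0.42. Its second probe set, 1457665_x_at, correlated with it at r = 0.33 over the same 36 arrays. Cyp39a1, an oxysterol hydroxylase, fell by 0.22 at 24 hr (adjusted p = 0.038). The 24 hr calls were lost without any 1 of 12 (Cyp27a1, difference then -0.33 to -0.25) and 11 (Cyp39a1, -0.27 to -0.18) of the 18 arrays compared, and the Cyp39a1 call also without Notch4-/- air replicates 1 and 2 together (-0.24).

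Cyp1a1 was the most variable member, with an SD of 1.32 over the 36 arrays. It oxidises polycyclic aromatic hydrocarbons and is the classic target of the aryl hydrocarbon receptor. In air its levels were 0.55, 0.51 and 0.75 in WT, 0.15, -0.18 and 0.77 in Notch3-/- and -0.41, 0.47 and 0.21 in Notch4-/- mice. After 48 hr they were -0.85, -1.85 and -0.97 in WT, -0.65, -0.58 and -1.61 in Notch3-/- and -2.65, -2.08 and -2.50 in Notch4-/- mice, so that all 9 lay below all 9 air mice. At 6 hr 2 of the 3 Notch3-/- mice reached 3.45 and 3.11 while the third was at -0.30, and 1 Notch4-/- mouse reached 1.80.

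The mean fall in Cyp1a1 at 48 hr was -1.84 (SE 0.34, adjusted p = 0.00038), to 0.279 times the air level, and -1.88 without Notch4-/- air replicates 1 and 2. Within genotypes it passed in Notch4-/- mice only, at -2.50 (SE 0.59, adjusted p = 0.022), while WT gave -1.83 (adjusted p = 0.13) and Notch3-/- gave -1.20 (adjusted p = 0.4), and the difference between genotypes did not pass. The Notch4-/- call was lost without air replicate 2 or 3 or 48 hr replicate 1 or 3, with differences from -2.75 to -2.31. It was also lost without air replicates 1 and 2 together (-2.62). The other members of the family were Cyp1a2 and Cyp1b1, with no call, and Cyp1b1 1416612_at was nearest at 0.21 at 6 hr (adjusted p = 0.4). Endothelial markers moved with Cyp1a1: of 8 measured, 4 were lower at 48 hr with a median of -0.34, and the mean level of the list was -0.14 to 0.35 in air and -0.73 to 0.01 at 48 hr. Their part in the Cyp1a1 result was not tested.

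**Figure D2:**
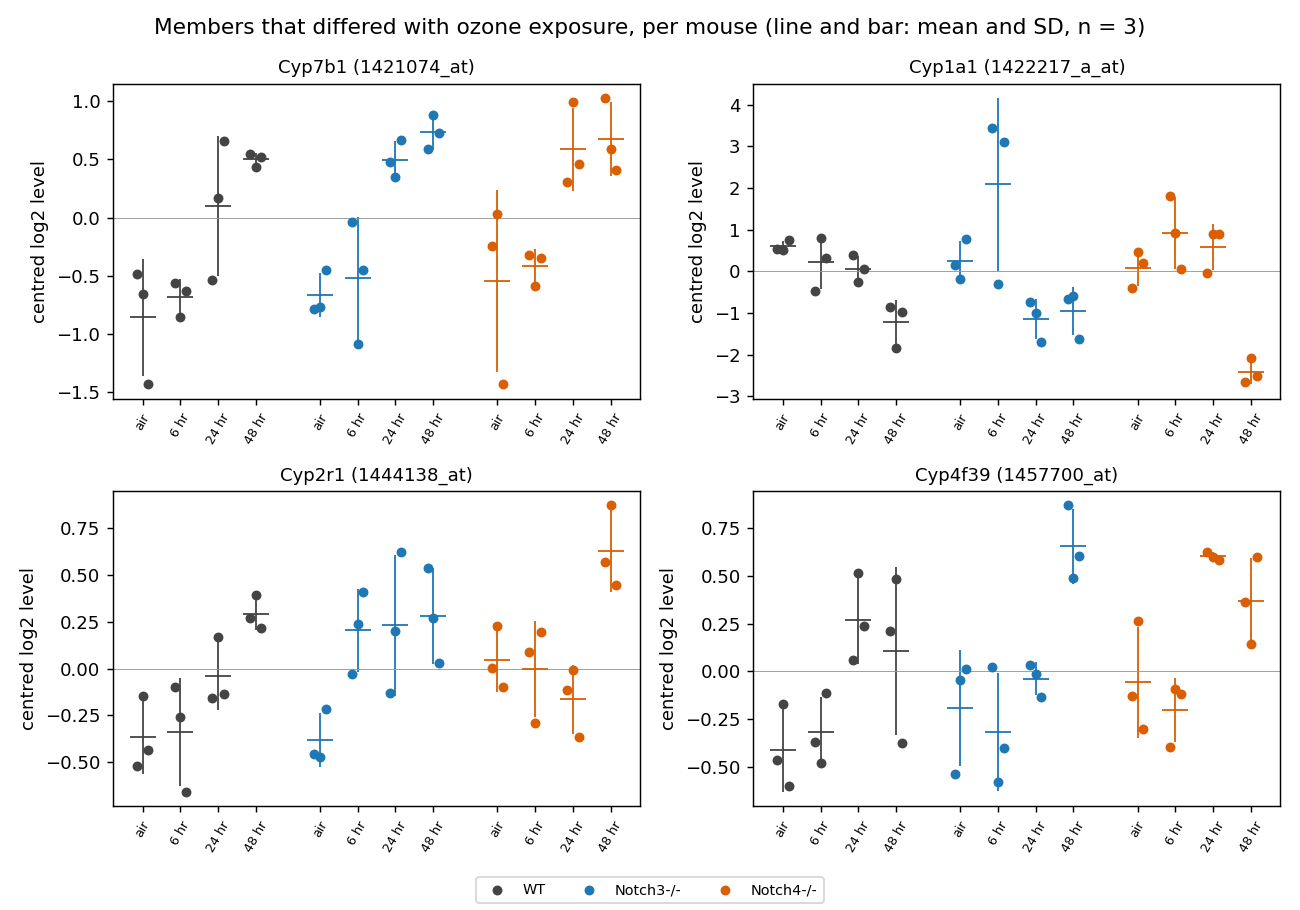
Centred log2 level of Cyp7b1, Cyp1a1, Cyp2r1 and Cyp4f39 in every mouse (points) with mean and SD of each group of 3, by exposure along the horizontal axis and by genotype in colour. Cyp7b1 is higher in all 9 mice at 48 hr than in any air mouse, Cyp1a1 is lower in all 9, and 2 Notch3-/- mice at 6 hr stand apart for Cyp1a1.

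Of the vitamin D and retinoic acid enzymes, 6 probe sets of 5 genes, only Cyp2r1 was called. Cyp2r1 is the hydroxylase of the first step of vitamin D activation. Its levels were -0.52, -0.15 and -0.43 in WT, -0.45, -0.47 and -0.21 in Notch3-/- and 0.01, 0.23 and -0.10 in Notch4-/- air mice, and 0.27, 0.39 and 0.22, then 0.54, 0.27 and 0.03, then 0.57, 0.87 and 0.45 at 48 hr. Within each genotype the 3 exposed mice lay above the 3 air mice, although the Notch4-/- air mice overlapped exposed mice of the other lines. The mean rise was 0.64 (SE 0.10, adjusted p = 7.1e-05), or 1.55-fold, and 0.68 without Notch4-/- air replicates 1 and 2. Cyp2r1 rose by 0.66 in WT (adjusted p = 0.05, just under the threshold) and by 0.66 in Notch3-/- mice (adjusted p = 0.042) and gave 0.59 in Notch4-/- mice (adjusted p = 0.095). These WT and Notch3-/- calls were lost without any 1 of 5 and of 4 of the 6 arrays, with differences from 0.58 to 0.77 and from 0.53 to 0.79, and the WT call with the replicate number as a block. Cyp26b1, which degrades retinoic acid, had the third largest spread (SD 0.98), with mice from -0.96 to 1.95 in air and from -1.31 to 1.12 at 48 hr, and its 48 hr difference of -0.91 (SE 0.40) did not pass (adjusted p = 0.17).

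Among the CYP4 fatty acid hydroxylases, 17 probe sets of 13 genes, calls went both ways. Cyp4f39, whose human counterpart makes the long hydroxy fatty acids of the skin barrier, had levels of -0.60 to 0.26 in the 9 air mice, -0.13 to 0.62 at 24 hr and -0.37 to 0.87 at 48 hr. It rose by 0.50 at 24 hr (SE 0.11, adjusted p = 0.0074) and by 0.60 at 48 hr (SE 0.11, adjusted p = 0.00041). Within genotypes it passed in Notch3-/- mice at 48 hr, where the exposed mice at 0.87, 0.49 and 0.61 lay above the air mice at -0.54, -0.05 and 0.01 (0.84, adjusted p = 0.012). That call was lost without Notch3-/- air replicate 1 or 48 hr replicate 1, with differences over the 6 arrays from 0.67 to 0.95. The Notch4-/- mice at 24 hr, at 0.62, 0.60 and 0.58, also lay above their air mice, by 0.66 (adjusted p = 0.076). Against the 1 air mouse left without air replicates 1 and 2 the difference was 0.90. WT gave 0.68 (adjusted p = 0.3). Notch3-/- mice gave 0.15 at 24 hr, well under the mean of the genotypes. The means of Cyp4f39 were 0.58 at 24 hr and 0.68 at 48 hr without Notch4-/- air replicates 1 and 2.

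Cyp4f15 fell by 0.53 at 24 hr (SE 0.09, adjusted p = 0.00046) and had no call at 48 hr, and its 24 hr difference was -0.57 without Notch4-/- air replicates 1 and 2. In WT its levels were 0.26, 0.51 and 0.01 in air, -0.53, -0.56 and -0.44 at 24 hr and -0.02, 0.24 and 0.10 at 48 hr, a fall by 0.77 at 24 hr (adjusted p = 0.037). The call in WT was lost without any 1 of 5 of the 6 arrays, with differences from -0.89 to -0.64. Of 8 club cell markers, 2 were lower and 1 higher at 24 hr in the mean of genotypes, and 2 were higher within Notch3-/- mice. The mean level of this list was -0.38 to 0.16 in WT air mice and -0.69 to -0.61 in WT mice at 24 hr. Within WT 0 of them passed with limma (5 at an unadjusted p under 0.05). Their part in the Cyp4f15 result was not tested. Cyp4v3, a hydroxylase of medium chain fatty acids, fell by 0.24 (1417070_at, adjusted p = 0.036) and 0.31 (1417071_s_at, adjusted p = 0.011) at 48 hr and by 0.26 at 24 hr (1417071_s_at, adjusted p = 0.05, just under the threshold). Without Notch4-/- air replicates 1 and 2 none of these values passed, and without single arrays the calls of 1417070_at at 48 hr and 1417071_s_at at 24 hr were lost in 9 and 13 of 18 refits. Within Notch4-/- mice Cyp4v3 gave -0.02 and -0.13 at 48 hr, and 0.10 and 0.06 without those mice. Cyp4f16 1430173_x_at rose by 0.21 at 48 hr (adjusted p = 0.034), a call lost without any 1 of 11 of 18 arrays (0.16 to 0.25) and held without Notch4-/- air replicates 1 and 2 (0.25), while 1417277_at gave 0.10. Cyp4a31 1440134_at fell by 0.46 at 24 hr in Notch3-/- mice (adjusted p = 0.032), a call lost without any 1 of 4 of its 6 arrays (-0.60 to -0.30), and the other probe set of the gene ran differently over the arrays (r = -0.22).

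The CYP2C and CYP2J enzymes, many of which turn arachidonic acid into epoxides, were read by 18 probe sets of 16 genes. Of these probe sets 3 were lower at 24 hr, 2 at 48 hr, 1 at 6 hr and 0 were higher. Of all probe sets 2.1%, 3.96% and 2.08% were lower at these times. Cyp2j9 levels were -0.10 to 0.30 in the 9 air mice, -0.49 to -0.04 at 24 hr and -0.58 to 0.01 at 48 hr, so the exposed mice overlapped the lowest air mouse only. It fell by 0.38 at 24 hr (SE 0.09, adjusted p = 0.0082) and by 0.36 at 48 hr (SE 0.09, adjusted p = 0.0053), with no call in any single genotype, and differed by -0.40 and -0.38 without Notch4-/- air replicates 1 and 2. Cyp2j6 1440691_at fell by 0.25 at 24 hr (adjusted p = 0.029) and by 0.37 at 48 hr (SE 0.07, adjusted p = 0.00039), or differed by -0.30 and -0.42 without those mice, and the second probe set 1417952_at had no call and correlated with it at r = 0.43 over 36 arrays. Within genotypes Cyp2j6 fell by 0.46 in WT at 48 hr (adjusted p = 0.038) and by 0.44 in Notch3-/- mice at 24 hr (adjusted p = 0.04), where the exposed mice at -0.29, -0.19 and -0.16 lay below the air mice at 0.24, 0.20 and 0.26. Those calls were lost without any 1 of 5 and of all 6 arrays, with differences from -0.52 to -0.40 and from -0.47 to -0.41. Cyp2c38 fell by 0.24 at 24 hr (adjusted p = 0.03) and Cyp2c54 by 0.27 at 6 hr (adjusted p = 0.045). The calls of Cyp2c38, Cyp2c54 and Cyp2j6 at 24, 6 and 24 hr were lost without any 1 of 9, 14 and 6 of 18 arrays, and those of Cyp2c38 (-0.23) and Cyp2c54 (-0.26) also without Notch4-/- air replicates 1 and 2.

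Of the 5 CYP3A probe sets Cyp3a13, an enzyme of steroid and drug oxidation, was called. Its levels were 0.27, -0.19 and -0.33 in WT air and 0.35, 0.69 and 0.90 in WT mice at 48 hr, a rise by 0.73 (SE 0.19, adjusted p = 0.035). The Notch3-/- mice gave 0.04 and the Notch4-/- mice 0.53 (adjusted p = 0.17) at 48 hr. The mean was 0.43 (SE 0.11, adjusted p = 0.0075), or 0.40 and no longer called without Notch4-/- air replicates 1 and 2. The WT call was lost without any 1 of 4 of the 6 arrays (WT air replicates 2 and 3 and 48 hr replicates 2 and 3), with differences from 0.60 to 0.91.

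The 20 probe sets of the CYP2A to CYP2S enzymes, 16 genes, gave 0 calls for ozone in limma's test of the mean of genotypes. At an unadjusted p under 0.05 there were 6, 4 and 1 at 6, 24 and 48 hr, and 8642, 9556 and 10025 of all 45037. Cyp2e1, which oxidises ethanol and small solvents, had the second largest spread (SD 1.16), from -2.15 in a Notch4-/- mouse at 24 hr to 3.79 in a Notch4-/- mouse at 48 hr, and its nearest comparison was -0.96 at 24 hr (SE 0.45, adjusted p = 0.22). Cyp2s1, an airway P450, gave -0.32 at 24 hr (adjusted p = 0.13) and Cyp2b10, the standard target of the constitutive androstane receptor, -0.21 (adjusted p = 0.091). The 3 probe sets of Cyp2b10 followed each other over the arrays, with r from 0.87 to 0.96. Steroid hormone enzymes, 8 probe sets of 5 genes, and the 5 probe sets of Cyp20a1 and Cyp2u1 had no call in the averaged comparisons, and Cyp21a1 was nearest among the former at -0.22 at 6 hr (adjusted p = 0.15). Of 8 liver markers, the organ in which many P450s are most abundant, 0 were higher and 2 lower at 6 hr, 0 and 1 at 24 hr, 1 and 1 at 48 hr and 0 and 1 in either knockout line, and of 8 skeletal muscle markers 0 passed (0 to 2 at an unadjusted p under 0.05). Within Notch3-/- mice 0 muscle markers passed, but 1, 5 and 5 were under an unadjusted p of 0.05 at 6, 24 and 48 hr, with medians of -0.94, -1.42 and -1.23, as were 6 in Notch3-/- against WT air mice (median 1.35), all in comparisons that hold the array named above.

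Ozone within single genotypes, 3 exposed against 3 air mice, gave few calls. In WT mice 0 of 94 passed at 6 hr with limma (0% of all probe sets were called), and 10 had an unadjusted p under 0.05 (3674 of all 45037). At 24 hr 0 were higher and 1 lower (against 0.0933% and 0.0111% of all), and at 48 hr 4 were higher and 1 lower (against 1.39% and 0.495%). In Notch3-/- mice 0 passed at 6 hr (0.16% of all), and 18 had an unadjusted p under 0.05 in limma (5453 of all). At 24 hr 2 were higher and 2 lower (1.38% and 1.34% of all), and at 48 hr 4 were higher and 0 lower (1.93% and 0.528% of all). In Notch4-/- mice 0 passed at 6 hr (0.00666% of all), and 5 had an unadjusted p under 0.05 in limma (4722 of all). At 24 hr 1 was higher and 0 lower (1.15% and 0.238% of all), and at 48 hr 2 were higher and 1 lower (1.48% and 0.271% of all).

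At any time 6 probe sets passed in WT mice (1.92% of all did), 6 in Notch3-/- (4.44%) and 3 in Notch4-/- mice (2.83%), with Cyp7b1 among them in all genotypes. With a strict reading of the ANOVA and Tukey test of the methods, 0 passed in each genotype. Here Tukey's p, which already allows for the pairs of groups, was adjusted again over all probe sets. The paper reported differentially expressed transcripts in every genotype with its own test, so it may not have used this reading. With the ANOVA adjusted and Tukey's p taken as it stands, 5, 4 and 3 passed. The share of all probe sets was not counted for either Tukey form. Differences between the knockout and WT responses to ozone, tested directly, gave 0 of 94 at 6, 24 and 48 hr in Notch3-/- (0.00888%, 0.00444% and 0.00222% of all) and in Notch4-/- mice (0%, 0% and 0.00222% of all). At an unadjusted p under 0.05 in limma there were 8, 7 and 3 in Notch3-/- mice (2189, 4593 and 1303 of all 45037). In Notch4-/- mice there were 4, 9 and 2 (1393, 2366 and 1480 of all). That 0 passed does not show that the responses were alike.

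**Figure D3:**
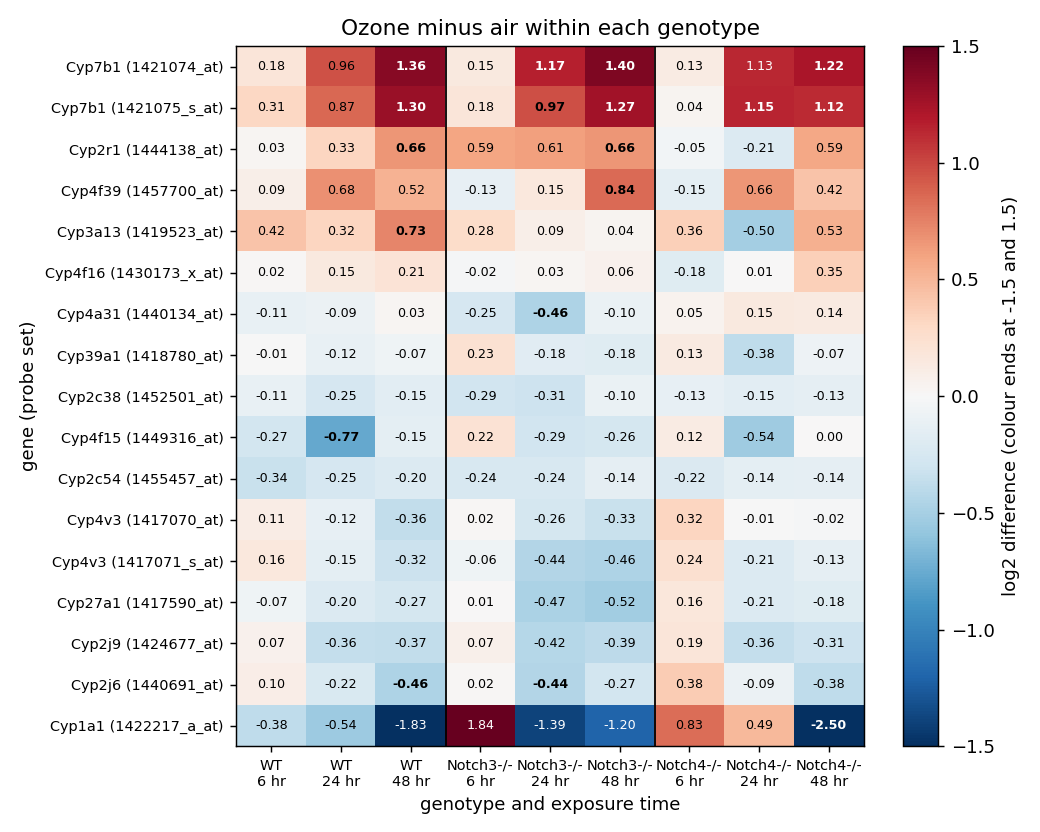
Log2 difference between ozone and air within each genotype (columns, 3 times each) for the 17 probe sets called in any ozone comparison (lines, from highest to lowest at 48 hr), with bold print where that genotype's own comparison passed. The 2 Cyp7b1 probe sets are above 1.1 in every genotype at 48 hr, and Cyp1a1 is at -1.2 or lower in all of them.

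The mouse lines were compared over all 4 exposures, 12 mice against 12. Of the 94 probe sets 1 was higher (1.06%, against 3.28% of all) and 2 lower (2.13%, against 2.4%) in Notch3-/- than in WT lungs, and 1 was higher (1.06%, against 2.87%) and 5 lower (5.32%, against 2.89%) in Notch4-/- lungs. In air alone, with limma, 0 passed in either line (0.486% and 0.482% of all were called), and both ANOVA forms also gave 0. In limma 9 in each line had an unadjusted p under 0.05 in air (3253 and 3333 of all 45037). Cyp4f18 was higher and Cyp4b1 and Cyp3a13 were lower in both lines, which share the WT mice as controls, and Cyp2d22 and Cyp4v3 were lower in Notch4-/- mice.

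Cyp4f18, the neutrophil enzyme that hydroxylates leukotriene B4, showed the largest line difference among the members. Its levels in air were -0.71, -0.24 and -0.40 in WT, 0.15, -0.03 and 0.63 in Notch3-/- and -0.34, 0.13 and 0.38 in Notch4-/- mice. Over all exposures the WT mice ranged from -1.21 to 0.08 (median -0.49), the Notch3-/- mice from -0.03 to 0.75 (median 0.29) and the Notch4-/- mice from -1.21 to 0.40 (median -0.01). Only the highest WT mouse, at 48 hr, reached into the range of the Notch3-/- mice, whereas the Notch4-/- mice at 24 hr were as low as WT. The difference from WT was 0.89 in Notch3-/- (SE 0.11, adjusted p = 2.1e-06), 1.85-fold, and 0.40 in Notch4-/- mice (SE 0.11, adjusted p = 0.029), or 0.48 without Notch4-/- air replicates 1 and 2. The Notch4-/- call was lost without any 1 of 10 of the 24 arrays, with differences from 0.35 to 0.45. In air alone it was 0.70 (adjusted p = 0.26) and 0.51 (adjusted p = 0.6), and the second probe set 1433389_at had no call and ran differently over the arrays (r = -0.15).

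Neutrophil markers also differed between the lines. Of 7 measured, 6 were higher in Notch3-/- (median difference 0.96) and the same number in Notch4-/- lungs (median 0.58). S100a8, a calcium binding protein abundant in neutrophils, was higher by 2.09 and 1.32. The mean level of the list lay between -0.85 and 0.04 in WT, -0.16 and 1.44 in Notch3-/- and -0.33 and 0.71 in Notch4-/- mice. At 24 hr the list was at -0.33 to 0.29 in Notch4-/- and at -0.75 to -0.56 in WT mice, whereas Cyp4f18 was then as low in Notch4-/- as in WT mice. The part of neutrophil number in the Cyp4f18 difference was not tested.

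Cyp4b1, a lung enzyme that activates furans and aromatic amines, was steady within lines. Its levels were 0.02 to 0.23 in WT, -0.31 to 0.08 in Notch3-/- and -0.20 to 0.07 in Notch4-/- mice over 12 mice each, and in air all 3 mice of either knockout lay below the 3 WT mice. It was lower by 0.19 in Notch3-/- (-0.19, SE 0.04, adjusted p = 0.004) and by 0.17 in Notch4-/- mice (-0.17, SE 0.04, adjusted p = 0.012). Without Notch3-/- air replicate 3, the array with the muscle signal, the Notch3-/- difference was -0.16 over all exposures. In air alone it went from -0.18 to -0.07 without that array. Club cell markers gave 1 higher and 0 lower of 8 in each line, and the higher one was Scgb3a1, a secretoglobin. Of 8 endothelial markers 2, Tek and Tie1, were lower in each line, and the part of these cells was not tested. Cyp3a13 differed by -0.38 in Notch3-/- (SE 0.09, adjusted p = 0.01) and -0.40 in Notch4-/- mice (SE 0.09, adjusted p = 0.0075), while in air it differed by -0.11 and -0.13, and its 12 mice overlapped between all lines. The Notch4-/- values without Notch4-/- air replicates 1 and 2 were -0.18 for Cyp4b1 and -0.37 for Cyp3a13.

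Cyp2d22, the lung and liver enzyme of the CYP2D drug oxidising group, was at 0.12, 0.13 and 0.32 in WT air, 0.29, 0.25 and -0.30 in Notch3-/- air and -0.38, -0.28 and -0.42 in Notch4-/- air mice for 1419039_at. Over all exposures the difference of Notch4-/- from WT mice was -0.36 (SE 0.08, adjusted p = 0.0032) for 1419039_at and -0.34 (SE 0.09, adjusted p = 0.022) for 1419040_at, and the probe sets followed each other (r = 0.88). Cyp4v3 1417070_at differed by -0.26 in Notch4-/- mice (SE 0.06, adjusted p = 0.012), and the second probe set did not pass. Without Notch4-/- air replicates 1 and 2 the differences of the called probe sets were -0.37 and -0.41 for Cyp2d22 and -0.29 for Cyp4v3.

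**Figure D4:**
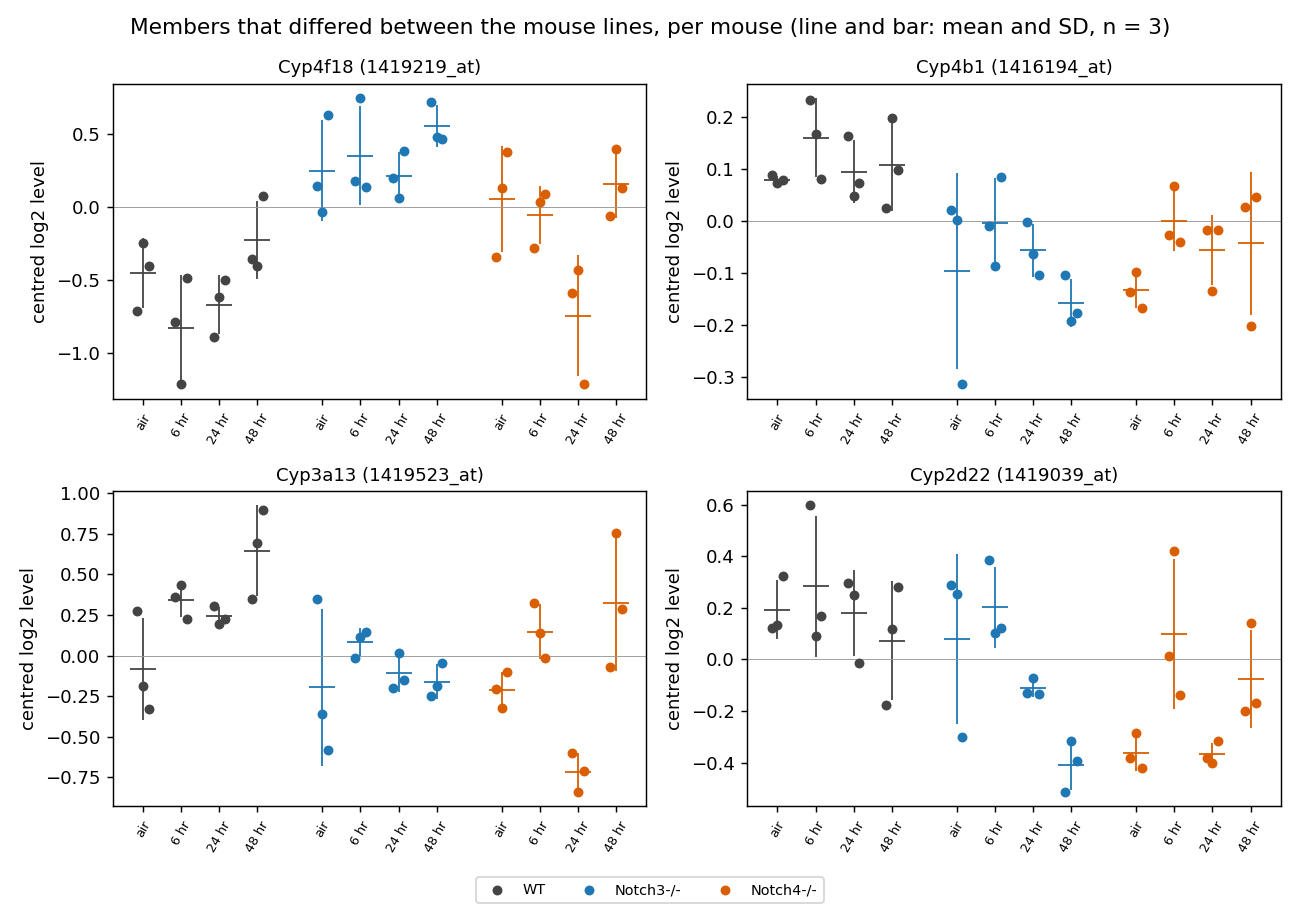
Centred log2 level of Cyp4f18, Cyp4b1, Cyp3a13 and Cyp2d22 in every mouse (points) with mean and SD of each group of 3, by exposure along the horizontal axis and by genotype in colour. Notch3-/- mice lie above WT for Cyp4f18 in each exposure and all 3 Notch4-/- air mice lie below WT for Cyp2d22.

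Notch3 and Notch4 lie on chromosome 17, as do 9 P450 genes with 13 probe sets, and DNA near a targeted gene can stem from the strain of the embryonic stem cells. In RefSeq order of coding genes Cyp4f39, Cyp4f16, Cyp4f15, Cyp4f14 and Cyp4f13 stand 8, 10, 13, 18 and 19 genes from Notch3, and Cyp21a1 stands 13 genes from Notch4. Of the 13 probe sets 0 passed between either line and WT over all exposures with limma. At an unadjusted p under 0.05 there were 2 and 3 (7280 and 8324 of all 45037). Differences ran from -0.12 to 0.12 in Notch3-/- and from -0.13 to 0.27 in Notch4-/- mice.

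The partners of P450s were taken as 3 lists. Of 9 measured genes of electron supply and heme turnover, Cyb5b (0.25) and Hmox1, the heme oxygenase (0.43), were higher at 24 hr. At 48 hr Hmox1 was higher (0.29) and Pgrmc1 lower (-0.21), and Cyb5r3 was lower (-0.28) at 6 hr. Of 15 receptors and their helpers, Tiparp, a target of the aryl hydrocarbon receptor, was higher at 6 hr (0.40) and Rarg and Nr1h3 were lower (-0.29 and -0.29), and at 48 hr Hnf4a was higher (0.24) and Rarg lower (-0.22). Ahr itself was lower in Notch3-/- mice (-0.29, adjusted p = 0.036) and Rarb in both lines (-0.59 and -0.53). Of 14 enzymes that work beside P450s, Nqo1 (0.68) and Ces1f (1.16) were higher at 6 hr. Ephx1, which opens epoxides made by P450s, was lower at 24 hr (-0.40, adjusted p = 0.00075) and, with Fmo1, Fmo5 and Aox3, at 48 hr (-0.59, adjusted p = 7.7e-07). In Notch3-/- and Notch4-/- mice Fmo1 (-0.39 and -0.42), Aox3 (-0.31 and -0.28) and Ces1d (-0.24 and -0.18) were lower than in WT.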

How the data were processed

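Per the file headers and the methods of the study, the authors hybridised 1 left lung per array to Affymetrix whole genome mouse arrays and deposited log2 expression values made by RMA. Tested on the table, the deposited log2 values were centred on each probe set's median, a step the sources used here do not give. All 36 value columns matched 1 sample and 0 were unassigned. Symbols came from the platform annotation. After 64 control probe sets were left out, 45037 were fitted with limma 3.58.1 in R 4.3.3, with 1 mean per group of 3 mice and 12 groups, and the Benjamini-Hochberg adjustment ran over all of them within each comparison, with a threshold of 0.05. Depth has no meaning for arrays, so the number of mice limits the precision. Nothing says whether mice were littermates. The scripts were tested on simulated data.

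Members, lists, comparisons and tests were chosen with earlier results of these data known. Named were up to 10 called members per comparison with the largest change, up to 4 members per role with the smallest p, a fixed set of lung P450s and the members on chromosome 17. For several probe sets of a gene, the one without a suffix letter, then of the lowest number, stood for it (s and x, 10 probe sets, can share signal with related transcripts). Called probe sets were named also where another probe set stood for the gene. Alternatives were the ANOVA with Tukey test of the methods in 2 readings (1 added after the data were seen), quantile normalization, centring of arrays, array weights, a robust prior, filters by symbol, arrays of the compared genotypes only, replicate number as a block, and leaving out arrays.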

Additional observations from a re-analysis of the deposited data

How the results depend on the processing

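All 50 calls kept their direction under every alternative that was run, and calls were lost most often with the ANOVA and Tukey test of the methods, adjusted over all probe sets (18 of 18), then with only the arrays of the compared genotypes (8 of 27), without Notch4-/- air replicates 1 and 2 (8 of 33) and without single arrays (155 of 738 refits). With that Tukey test, the stricter of the 2 readings, 0 probe sets passed at any time in WT, Notch3-/- and Notch4-/- mice. Array weights raised the counts to 11, 18 and 17 at any time in these genotypes, to 12 at 6 hr and 16 at 24 hr for the mean of genotypes, to 5 in Notch3-/- against WT, to 1 and 7 in air, and to 1 for the Notch3-/- response. A further quantile normalization gave 10 in Notch3-/- mice at any time, 0 at 6 hr and 1 in each line in air. Centring arrays gave 0 at 6 hr. Fitting only the arrays of the compared genotypes gave 1 in Notch4-/- mice. With 1 probe set per gene 7 passed at 24 hr and 8 at 48 hr for the mean of genotypes. Shares of all probe sets called were not counted under the alternatives or without single arrays, so these counts cannot be set against the whole array. Without Notch4-/- air replicates 1 and 2 the counts were 8 at 24 hr, 9 at 48 hr, 7 for Notch4-/- against WT and 4 for Notch4-/- at any time.

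Without single arrays the counts ran from 2 to 6 at any time in WT (3, 2, 3 and 3 without air replicates 2 and 3 and 48 hr replicates 1 and 2), 2 to 9 in Notch3-/- (2 without air replicate 1), 0 to 5 in Notch4-/- (0 without air replicate 3, 5 without 24 hr replicate 1), 0 to 3 at 6 hr, 5 to 11 at 24 hr (5 or 6 without any 1 of WT air replicates 2 and 3, WT 24 hr replicates 2 and 3, Notch3-/- 24 hr replicate 1 and Notch4-/- 24 hr replicates 2 and 3), 10 to 12 at 48 hr, 3 to 4 and 5 to 7 between lines, 0 in air, and 0 to 1 (Notch3-/- 6 hr replicate 2 left out) and 0 for responses.

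Values that changed sign were all uncalled. With quantile normalization Cyp3a13 at 48 hr in Notch3-/- mice was -0.0087 and Cyp4v3 1417070_at at 48 hr in Notch4-/- mice 0.086. With array weights these were -0.13 and 0.083, Cyp2j6 at 24 hr in Notch4-/- mice was 0.0028 and Cyp3a13 of Notch3-/- against WT in air 0.15. Without Notch4-/- air replicates 1 and 2, Cyp4v3 at 48 hr in Notch4-/- mice was 0.095 and 0.063. Without single arrays Cyp3a13 ran from -0.39 to 0.078 and from -0.25 to 0.049 for Notch3-/- and Notch4-/- against WT in air and from -0.15 to 0.31 at 48 hr in Notch3-/- mice, Cyp4f39 from -0.020 to 0.25 at 24 hr in Notch3-/-, Cyp4v3 from -0.074 to 0.088 at 48 hr in Notch4-/-, and Cyp2j6 from -0.18 to 0.048 at 24 hr in Notch4-/- mice. The cause was not tested in any of these.

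Mice with the same replicate number had median correlations of their deviations of 0.15, 0.04 and 0.04, against -0.05 for different numbers, and pairs ran from -0.51 to 0.62. Not every pair was over 0.1 and no source ties the numbers to a batch, so the samples were taken to share only a number. With the number as a block the counts were 5 in WT at any time and otherwise as given. Probe sets of low signal cannot be told from others in centred values.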
